A study of Mus musculus with 6 samples.

Results

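The Fanconi anemia and homologous recombination genes were 35 genes taken by symbol from the table of annotated loci, out of 53445 loci in all. Where a symbol stood on several loci, the longest was used. All 35 were found, and all 35 were among the 22032 loci with enough reads to be tested. By role they comprised 8 subunits of the Fanconi anemia (FA) core complex, 3 genes of the FANCD2-FANCI (ID2) step, 12 genes of homologous recombination, and 12 genes of break sensing, end resection and the checkpoint.

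Poly(A) RNA was sequenced from Lin-Sca+Kit+ (LSK) bone marrow cells, the sorted fraction that holds hematopoietic stem cells and early progenitors. There were 3 OgaVav-Cre and 3 wildtype mice, each giving 1 library from at least 20000 cells. All were C57BL/6 females labelled as about 12 weeks old. OgaVav-Cre mice carried floxed Oga alleles and the Vav-iCre transgene, which drives recombination across the hematopoietic lineage and is not limited to stem cells. Oga encodes O-GlcNAcase, the enzyme that removes O-GlcNAc from proteins. The labels do not say whether the wildtype mice carried a floxed allele or Cre, so effects of Cre itself cannot be told apart from those of the deletion.

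DNA crosslinks block replication forks. The FA core complex is a ubiquitin ligase that modifies FANCD2 and FANCI at such forks, and USP1 removes this mark. The breaks that follow are repaired from the sister chromatid by BRCA1, BRCA2, PALB2 and their partners, mostly in S and G2 phase. Inherited loss of this pathway causes Fanconi anemia, in which hematopoietic stem cells are lost and the bone marrow fails, and many genes of the pathway are transcribed most strongly in dividing cells.

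The libraries held 19318056 to 27064389 reads on annotated loci. Reads of Mgea5 (the table's symbol for Oga) were 104, 109 and 110 in the OgaVav-Cre libraries and 3164, 2970 and 2736 in the wildtype libraries, as their labels state. The sort markers Kit and Ly6a (which encodes Sca-1) were present in every library, Kit at 251.2 to 601.8 CPM (read counts scaled to library size) and Ly6a at 42.3 to 218.4 CPM. OgaVav-Cre replicate 3 stood apart. Its 14 LSK markers summed to 1405 CPM against 1823 to 3130 CPM in the other libraries, and its 19 markers of lineage-positive cells to 3515 CPM against 746.8 to 1595 CPM. The 3 immunoglobulin loci took 1.17% to 9.88% of the reads of a library. Every member fit was therefore also made without each library in turn and with the immunoglobulin share as a covariate.

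No member met the study's cutoffs for a changed gene (an adjusted p under 0.05 with a log2 fold change beyond 1 in either direction) in edgeR's quasi-likelihood test. Over all loci tested, 0.0272% were called lower and 0.00454% higher in OgaVav-Cre. DESeq2's Wald test, which called 0.336% of loci lower and 0.143% higher, and limma-voom, which called 0.0227% lower and 0.0% higher, also called 0 of the 35. At an unadjusted p below 0.05, edgeR gave 2 members lower in OgaVav-Cre, Palb2 and Trp53bp1, and 0 higher. With the immunoglobulin share as a covariate neither had a p below 0.05, while the log2 fold change of Palb2 was -0.41 against -0.45 and that of Trp53bp1 -0.27 against -0.29. The 2 were 5.71% of the members against 6.27% of all loci lower and 4.38% higher. The smallest adjusted p of any member was 0.445. The p-values set the difference between genotypes against the spread between mice, 3 of each genotype. That spread was estimated with information shared over all loci tested. In bulk RNA, fewer cells of a type and less RNA per cell cannot be told apart, and this holds for every difference given here.

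The members were divided evenly in direction. Fold changes (OgaVav-Cre over wildtype) were negative for 18 and positive for 17, with a median log2 fold change of -0.03 against 0.0041 over all loci tested. They ran from -0.59 for Rad51c to 0.33 for H2afx. Fancf was counted as negative by its longest locus (-0.38), which lies downstream of the annotated gene. The locus at that gene had a positive value (0.11). For 32 members the 95% interval of the log2 fold change lay between -1 and 1, so a change of the size the cutoff asks for was outside the interval. The intervals of Fancf, H2afx and Rad51c reached past that range.

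**Figure D1:**
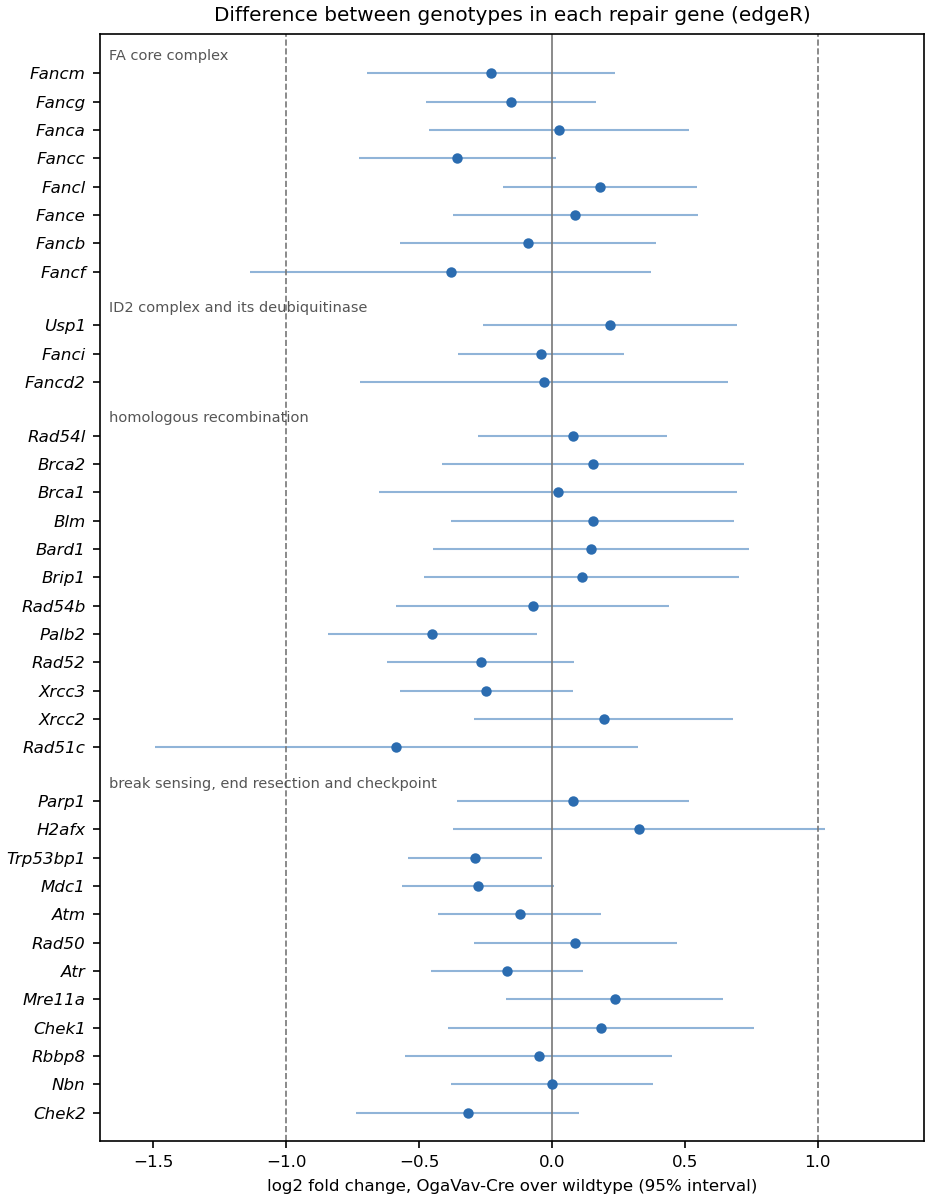
The log2 fold change of each repair gene (horizontal axis, OgaVav-Cre over wildtype) with its 95% interval from edgeR, grouped by role and ordered within each role by level. Dashed lines mark the cutoff of 1 in each direction. Points lie between -0.59 and 0.33, and the intervals of Palb2 and Trp53bp1 alone exclude 0.

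Per length, H2afx, Parp1 and Usp1 had the highest levels of the members in wildtype LSK cells. H2afx, which encodes the histone variant phosphorylated around breaks, had 85.3 ± 42.6 RPKM (reads per kilobase, scaled to library size; mean ± SD, n = 3) in wildtype and 101.9 ± 3.36 RPKM in OgaVav-Cre. Parp1, a sensor of strand breaks, followed with 52.96 ± 13.9 and 53.3 ± 4.24 RPKM. Usp1 had 23.7 ± 7.18 and 26.3 ± 2.92 RPKM. The core complex genes stood lower, between 0.901 RPKM for the longest Fancf locus and 4.89 RPKM for Fancg in wildtype. That Fancf locus lies downstream of the annotated gene and understates Fancf. The locus at the gene, 1691 bases long against 4465, had 174, 126 and 151 wildtype reads against 108, 100 and 79. Neighbours in the order of wildtype levels differed by less than the larger SD of the pair, except Parp1 and Usp1, Usp1 and Mdc1, Rad50 and Chek1, and Nbn and Xrcc2.

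**Figure D2:**
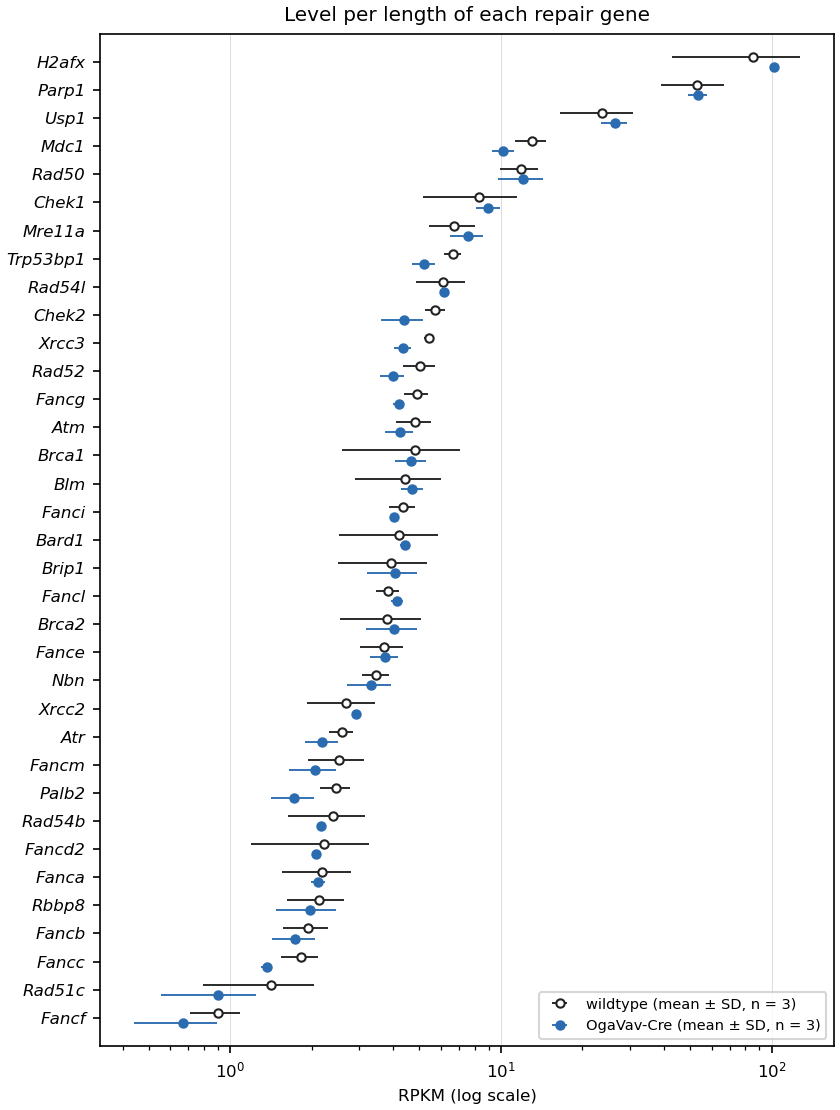
Level per length of each repair gene in RPKM on a log axis, with open symbols for wildtype and filled symbols for OgaVav-Cre (mean ± SD, n = 3). H2afx, Parp1 and Usp1 lie above 20 RPKM in both genotypes. The longest Fancf locus, downstream of the annotated gene, lies below 1 RPKM.

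Among the 8 core complex genes the median log2 fold change was -0.12, and 0 had an unadjusted p below 0.05. This median depends on the locus used for Fancf. The longest locus, downstream of the annotated gene, entered at -0.38, where the locus at the gene had 0.11. Fancc, a subunit that joins Fance and Fancf in one submodule, had 13.6, 13.7 and 13.0 CPM in OgaVav-Cre replicates 1 to 3 and 16.1, 15.6 and 19.8 CPM in wildtype. The genotypes did not overlap. The log2 fold change was -0.36 (SE 0.160, adjusted p 0.485 in edgeR's test). A second Fancc locus on the opposite strand, inside the span of the first, held 51, 81 and 87 reads in OgaVav-Cre mice against 81, 89 and 199 in wildtype. The locus 2010111I01Rik overlaps one end of Fancc on the opposite strand, with 2695 reads in all against 2121 and a log2 fold change of -0.28. LOC100504114, inside the span on the same strand, had 523 reads and a log2 fold change of -0.38. How much of the Fancc count came from other loci was not tested. Fancg, a scaffold subunit, was separated by less than 1 CPM, with 20.4 to 23.1 CPM in OgaVav-Cre mice against 23.2 to 26.5 CPM in wildtype.

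Fancl, the ubiquitin ligase subunit of the core complex, pointed the other way with 19.0, 18.7 and 16.5 CPM in OgaVav-Cre mice against 16.8, 17.2 and 13.8 CPM in wildtype, and the genotypes overlapped. Fancm, the DNA translocase that anchors the complex on the fork, had 22.3 to 30.0 CPM in OgaVav-Cre mice against 23.1 to 36.4 CPM in wildtype. Fanca was at 21.0, 21.3 and 21.2 CPM in OgaVav-Cre, the tightest group of any member, and at 25.8, 14.7 and 21.8 CPM in wildtype. Fancb and Fance, the remaining subunits, also overlapped between genotypes, at 9.13 to 13.0 CPM and 10.6 to 15.3 CPM over the 6 libraries.

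Fancf needs care. The longest locus of that symbol, on the minus strand at chr7:59110955-59115419 in mm9, lay downstream of the annotated Fancf gene, which spans chr7:59115947-59117637 and holds the coding sequence. The longest locus had 52, 96 and 118 reads in OgaVav-Cre mice against 108, 100 and 79 in wildtype, and the 52 reads were the lowest count of any member. The locus at the annotated gene had 174, 180 and 216 reads in OgaVav-Cre mice against 174, 126 and 151 in wildtype, with a log2 fold change of 0.11 (edgeR's adjusted p 0.865) where the longest locus gave -0.38. The remaining Fancf locus held 30, 29 and 32 reads against 64, 49 and 48. It had a log2 fold change of -1.05 (edgeR's adjusted p 0.412). The direction for Fancf thus differed between loci, and no locus passed the test.

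The ID2 genes spread more in wildtype than in OgaVav-Cre. Fancd2, whose product is the main substrate of the core complex, had 21.1, 19.4 and 18.0 CPM in OgaVav-Cre mice against 30.4, 15.7 and 13.6 CPM in wildtype. Usp1, which reverses the modification, had 111.6, 125.3 and 123.1 CPM in OgaVav-Cre mice against 134.3, 74.3 and 100.7 CPM in wildtype. Fanci, the partner of Fancd2, ranged from 26.3 to 29.1 CPM in OgaVav-Cre and from 25.8 to 31.4 CPM in wildtype. For all 3 genes the OgaVav-Cre libraries lay inside the wildtype range.

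In the homologous recombination group the median log2 fold change was 0.051. Palb2, which links BRCA1 to BRCA2 at breaks, had 12.9, 17.1 and 14.5 CPM in OgaVav-Cre mice against 21.0, 17.9 and 21.9 CPM in wildtype. Every OgaVav-Cre library lay below every wildtype library. The log2 fold change was -0.45 (SE 0.169, adjusted p 0.445 in edgeR's test and 0.520 in DESeq2's). Only a locus with 56 reads in all lay over part of its span, against 2430 reads for Palb2.

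Its partners did not separate. Brca1 had 41.9, 49.4 and 48.0 CPM in OgaVav-Cre mice against 69.2, 29.6 and 38.2 CPM in wildtype. Bard1, the obligate partner of BRCA1 in its ubiquitin ligase, had 37.4, 37.2 and 34.8 CPM against 47.2, 22.4 and 29.1 CPM. Brca2, a tumor suppressor that acts at the strand exchange step, had 50.7, 66.6 and 46.6 CPM against 67.6, 43.0 and 36.9 CPM. In each of these genes wildtype replicate 1 was the highest of the 6 libraries, the other wildtype libraries were the lowest, and OgaVav-Cre lay between. The helicase genes Brip1 (29.2 to 41.2 CPM in OgaVav-Cre, 24.1 to 45.9 CPM in wildtype) and Blm (38.5 to 41.3 and 26.5 to 50.2 CPM) had the same order.

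Rad51c, which acts in strand exchange and in resolution, had the largest negative value and one of the widest spreads. It had 3.37, 4.08 and 6.38 CPM in OgaVav-Cre mice against 9.75, 3.84 and 7.19 CPM in wildtype, from 74 to 208 reads per library. The genotypes overlapped, and the log2 fold change of -0.59 had an SE of 0.392 and an adjusted p of 0.599 in edgeR's test. Xrcc3, which pairs with Rad51c, had 13.9, 14.8 and 13.5 CPM in OgaVav-Cre mice against 16.6, 16.4 and 17.0 CPM in wildtype. It did not overlap and had the smallest wildtype spread of the members, with a log2 fold change of -0.25 (SE 0.141, adjusted p 0.552).

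Rad52, an annealing factor, had 14.8, 16.6 and 15.9 CPM in OgaVav-Cre mice against 17.9, 17.6 and 21.4 CPM in wildtype, again without overlap. The log2 fold change was -0.27 (SE 0.152, adjusted p 0.551 in edgeR's test). Reads of Rad52 and of AK139131, a locus on the opposite strand inside its span with 1814 reads in all against 2415, cannot be told apart where they overlap, since the library kit did not mark strand. The remaining genes of the group, Xrcc2 and the translocases Rad54l and Rad54b overlapped between genotypes, with log2 fold changes between -0.07 and 0.19.

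**Figure D3:**
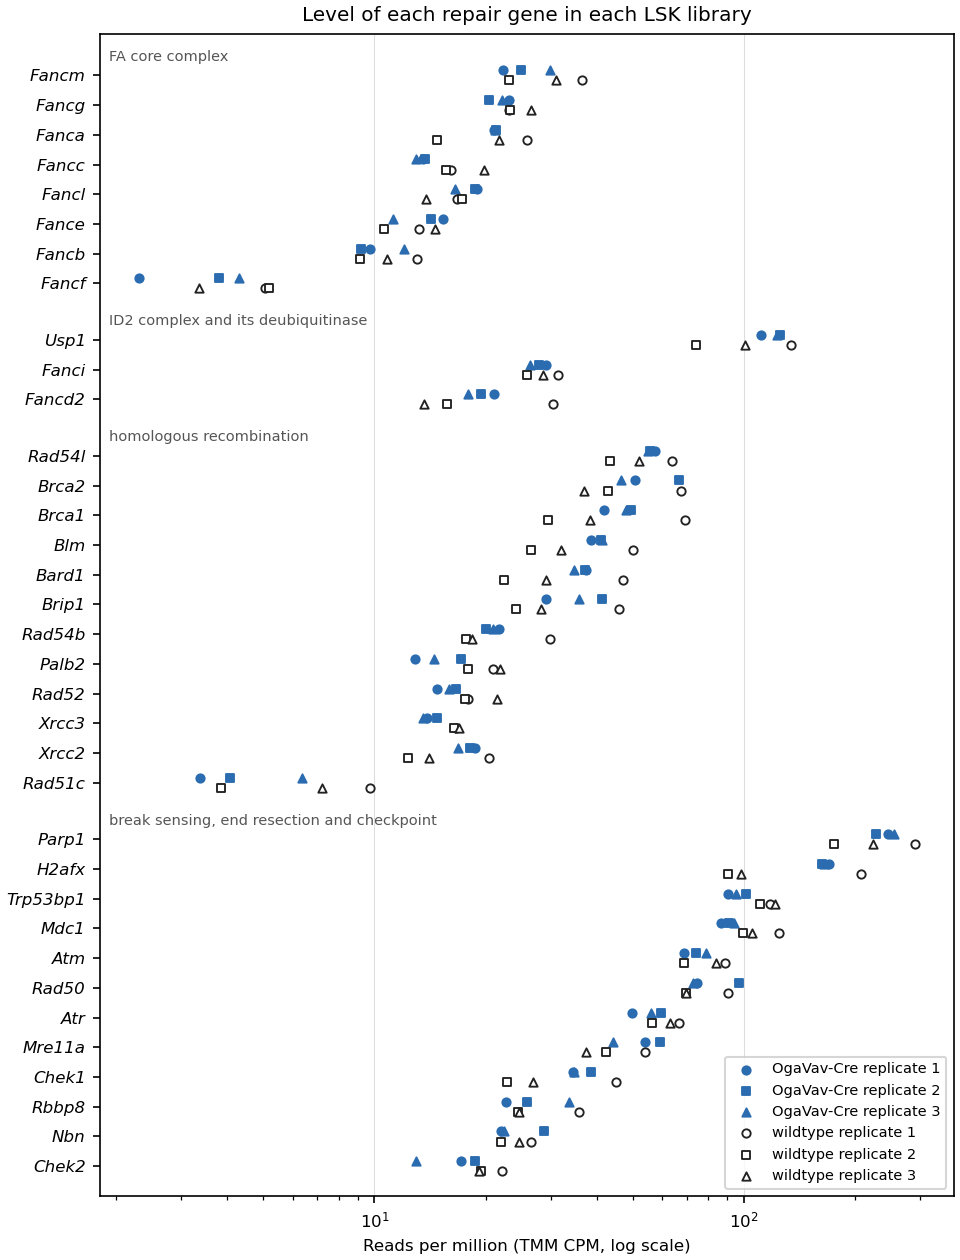
CPM of each repair gene in each of the 6 LSK libraries on a log axis, grouped by role, with filled blue symbols for OgaVav-Cre and open symbols for wildtype. Palb2, Fancc, Rad52, Xrcc3, Trp53bp1, Mdc1, Chek2 and Fancg show all OgaVav-Cre symbols to the left of all wildtype symbols, and in many of the other genes the open circle (wildtype replicate 1) lies farthest to the right.

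The break sensing and checkpoint group held 3 of the 8 members without overlap. Trp53bp1 encodes 53BP1, which restrains end resection. It had 90.4, 101.2 and 95.4 CPM in OgaVav-Cre mice against 118.0, 110.8 and 121.8 CPM in wildtype. The log2 fold change was -0.29 (SE 0.109, adjusted p 0.445 in edgeR's test). Tubgcp4, which overlaps one end of Trp53bp1 on the opposite strand, had 9290 reads in all against 14746 and a log2 fold change of -0.44 (unadjusted p 0.0129). How much of one count came from the other locus was not tested.

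Mdc1, the mediator that binds phosphorylated H2AX, had 86.5, 91.3 and 94.1 CPM in OgaVav-Cre mice against 124.6, 99.7 and 105.4 CPM in wildtype. Its log2 fold change was -0.28 (SE 0.124, adjusted p 0.484 in edgeR's test). Chek2, the checkpoint kinase downstream of ATM, had 17.2, 18.7 and 12.9 CPM against 22.2, 19.5 and 19.2 CPM. Its value was -0.32 (SE 0.181, adjusted p 0.551). Here OgaVav-Cre was the more variable genotype, and replicate 3, the library with the high lineage markers, was the lowest.

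The apical kinases overlapped. Atr had 49.7, 59.6 and 56.2 CPM in OgaVav-Cre mice against 66.6, 56.5 and 63.0 CPM in wildtype, with a log2 fold change of -0.17 (SE 0.123, adjusted p 0.629 in edgeR's test). Atm ranged from 69.0 to 79.2 CPM and from 68.9 to 88.9 CPM. Chek1, the kinase downstream of ATR, had 34.4, 38.6 and 34.6 CPM against 45.0, 22.8 and 26.8 CPM, which is the order of Brca1.

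In the MRE11 complex, Mre11a, the nuclease, had 53.9, 59.3 and 44.2 CPM in OgaVav-Cre mice against 53.9, 42.3 and 37.4 CPM in wildtype. Its log2 fold change of 0.24 (SE 0.176, adjusted p 0.635 in edgeR's test) was the one positive value among the 10 members with the smallest p. Its partners overlapped, Rad50 at 72.7 to 97.2 CPM in OgaVav-Cre mice against 69.8 to 90.4 CPM in wildtype, and Nbn at 22.0 to 28.9 and 22.0 to 26.5 CPM. Rbbp8, which encodes the resection factor CtIP, ranged from 22.7 to 33.6 and from 24.4 to 35.9 CPM. H2afx had 170.5, 162.6 and 164.7 CPM in OgaVav-Cre mice against 207.4, 90.6 and 98.5 CPM in wildtype, and Parp1 had 245.4, 228.3 and 255.3 CPM against 290.6, 175.9 and 223.6 CPM.

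In total, 8 of the 35 members (22.9%) had all OgaVav-Cre libraries below all wildtype libraries (9.97% of all loci did), and 0 had them all above (7.5% of all loci). None of the 8 had an adjusted p below 0.445. Without OgaVav-Cre replicate 3, whose lineage markers were high, 8 members were lower and 2 higher without overlap, where 17.9% of all loci were lower and 15.9% higher. In that fit 0 members were called and 0 had an unadjusted p below 0.05 (8.09% of all loci lower, 6.2% higher). The part of those other cells in these values was not tested. The 8 were Fancc, Fancg, Palb2, Rad52, Xrcc3, Chek2, Mdc1 and Trp53bp1, spread over 3 of the 4 roles.

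The members varied more among the wildtype mice than among the OgaVav-Cre mice. The median SD of log2 CPM was 0.278 in wildtype and 0.0998 in OgaVav-Cre, where over all loci tested the medians were 0.252 and 0.245. The wildtype SD was the larger in 27 of 35 members (77.1%), against 48.9% of all loci. For 17 members (48.6%) all OgaVav-Cre libraries lay within the wildtype range, against 15.5% of all loci. H2afx differed most, with an SD of 0.657 in wildtype and 0.0354 in OgaVav-Cre. The 8 members with the larger SD in OgaVav-Cre were Atr, Chek2, Fancf, Nbn, Palb2, Rad50, Trp53bp1 and Xrcc3. With 3 mice a genotype these SDs are rough, and the members share the same libraries, so they are not independent.

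**Figure D4:**
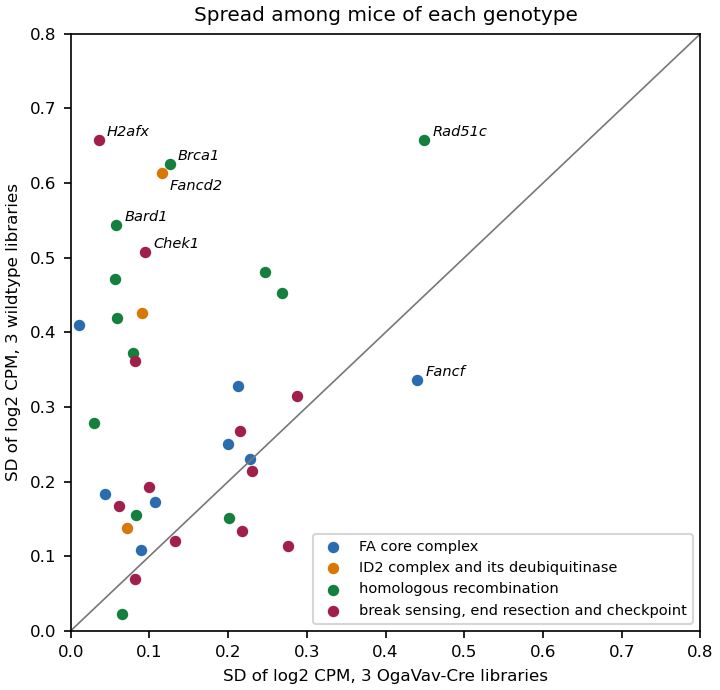
SD of log2 CPM over the 3 wildtype libraries (vertical axis) against that over the 3 OgaVav-Cre libraries (horizontal axis), 1 point for each repair gene, coloured by role. Points above the line of equal SD vary more among wildtype mice, as 27 of 35 do, with H2afx, Rad51c, Brca1 and Fancd2 above 0.6.

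Relative to each gene's mean log2 CPM over the 6 libraries, the members had medians of 0.30, -0.20 and -0.06 in wildtype replicates 1 to 3. In some members, such as H2afx, Fancd2 and Brca2, replicate 1 stood apart from both other wildtype libraries. Wildtype replicate 1 was the highest of the 6 libraries in 23 members (65.7%, against 14.6% of all loci), and replicate 2 the lowest in 16 (45.7%, against 16.7%). The median ratio of replicate 1 to replicate 2 was 1.42-fold over the members and 0.997-fold over all loci. It passed 1.5-fold in 15 members, which were Bard1, Blm, Brca1, Brca2, Brip1, Chek1, Fanca, Fancd2, Fancm, H2afx, Parp1, Rad51c, Rad54b, Usp1 and Xrcc2. It stayed within 1.2-fold in 10, which were Atr, Chek2, Fancc, Fancf, Fancg, Fancl, Palb2, Rad52, Trp53bp1 and Xrcc3. Of the 8 members without overlap, all but Mdc1 were among these 10. Both sortings use the same wildtype values, and a wide wildtype range makes overlap more likely, so they are not independent.

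A list of 41 DNA replication and S phase genes had the same libraries at its ends. Its summed level was 3574, 3779 and 3546 CPM in OgaVav-Cre mice against 4166, 2462 and 2828 CPM in wildtype, beside 1565, 1666 and 1613 and 1975, 1313 and 1500 CPM for the members. In this list 37 fold changes were positive and 4 negative, with a median log2 fold change of 0.22. Of the 22032 loci tested, 11119 were positive. The genes of the list share the same libraries and are not independent. None was called, and 0 were lower and 1 higher at an unadjusted p below 0.05 in edgeR's test. The gene was Tyms, thymidylate synthase, with 52.4, 54.2 and 55.5 CPM against 51.4, 27.5 and 33.8 CPM (log2 fold change 0.52). The next by p were Fen1, the flap endonuclease (0.53), and Cdt1, a licensing factor (0.40). The number of cells in S phase in each library was not measured by these files, and its part in the spread was not tested. By DAPI staining, a separate assay, the paper found the cell cycle profiles of LSK cells to be similar in the genotypes.

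**Figure D5:**
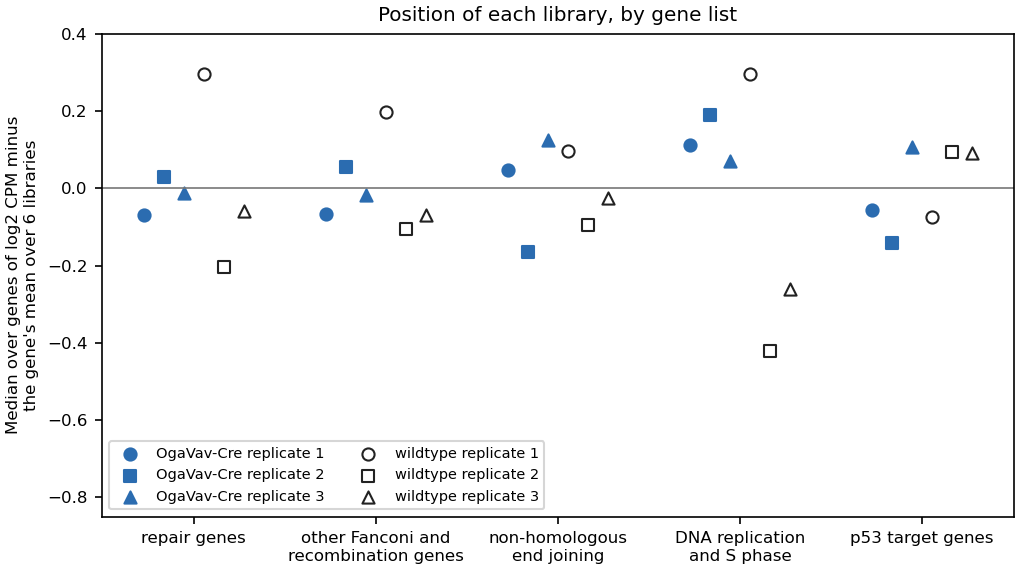
Position of each library on 5 gene lists, as the median over the genes of log2 CPM minus each gene's mean over 6 libraries. On the repair genes wildtype replicate 1 lies at 0.30 and wildtype replicate 2 at -0.20 with the OgaVav-Cre libraries between -0.07 and 0.03, and the DNA replication and S phase list has the same 2 wildtype libraries at its ends.

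Which wildtype mice were included set the sign of many members. Without wildtype replicate 1, 9 members were higher in OgaVav-Cre at an unadjusted p below 0.05 (25.7%, against 7.4% of all loci), namely Bard1, Blm, Brca1, Chek1, Fancd2, H2afx, Mre11a, Usp1 and Xrcc2. The log2 fold change of H2afx was then 0.81, and the smallest adjusted p of any member in edgeR's test was 0.186. In the same fit 29 of the 41 replication and S phase genes were higher at that p. Without wildtype replicate 2, 0 were higher and 4 were lower (11.4%, against 3.89% of all loci), namely Mdc1, Palb2, Rad51c and Trp53bp1, with a smallest adjusted p of 0.656. With the mean S phase level of each library as a covariate, 3 were lower (8.57%, against 3.59% of all loci), namely Mdc1, Palb2 and Trp53bp1, with a smallest adjusted p of 0.752. None of the 35 was called in any of these fits. Palb2 and Trp53bp1 kept a negative value in each, between -0.42 and -0.53 for Palb2 and between -0.28 and -0.32 for Trp53bp1. Wildtype replicates 1 and 2 were singled out after their values were seen, as the highest and the lowest library in many members. Leaving out either one moves the fold changes of those members in a set direction. The counts without it therefore describe dependence on that library only.

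Of 35 further Fanconi and recombination genes, 30 were found and tested and 0 were called. At an unadjusted p below 0.05, 2 were lower and 1 was higher, with a median log2 fold change of -0.04. Slx4, a nuclease scaffold, had 30.2, 28.3 and 33.7 CPM in OgaVav-Cre mice against 46.9, 35.0 and 41.5 CPM in wildtype (log2 fold change -0.42). Wdr48, the cofactor of USP1, had 58.1, 61.6 and 65.6 CPM against 76.6, 73.8 and 74.8 CPM (-0.28). Rpa2, of the single-strand binding complex, had 64.4, 63.1 and 56.1 CPM against 55.7, 34.1 and 37.8 CPM (0.52). Their adjusted p-values in edgeR's test lay between 0.434 and 0.439.

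Non-homologous end joining, the other main route of break repair, was covered by 13 of 14 listed genes, with 0 called, 0 at an unadjusted p below 0.05 and a median log2 fold change of -0.12. Its genes with the smallest p were Xrcc5, which encodes Ku80 (0.39), Dclre1c, which encodes Artemis (-0.43), and Prkdc, the catalytic subunit of DNA-PK (-0.34). Of 26 p53 target genes, 0 were called, and 1 was lower and 1 higher at an unadjusted p below 0.05. Phlda3, a p53-induced inhibitor of AKT, had 7.27, 7.91 and 6.06 CPM in OgaVav-Cre mice against 3.75, 2.39 and 1.65 CPM in wildtype, a log2 fold change of 1.45 (SE 0.334, adjusted p 0.384 in edgeR's test). The lower gene was Polk, a translesion polymerase, at -0.46. Rrm2b, a ribonucleotide reductase subunit, had the next smallest p, also at -0.46. The 14 markers of LSK cells had 0 genes at an unadjusted p below 0.05. The 18 markers of plasma cells also had 0, though 17 had a positive log2 fold change (median 0.62), and their summed level was 114700 CPM in OgaVav-Cre replicate 1 against 13190 to 57260 CPM in the other libraries. The markers of lineage-positive cells had 1, Cd4, which was at 72.7 CPM in OgaVav-Cre replicate 3 and at 10.7 to 20.8 CPM in the other libraries.

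Promoter sequence was examined because the members split by their spread between wildtype mice, and E2F factors act on many S phase genes. RefSeq windows of 250 bases before the transcript start were at hand for 27 of the 35 members (build GRCm38.p6) and not for Fancd2, Usp1, Xrcc2, Rad54b, Rad50, Nbn, Rbbp8 and H2afx. An E2F motif (TTTCCCGC, TTTCGCGC, TTTGCCGC or TTTGGCGC, either strand) stood in 5 of the 27 (18.5%), against 1.91% of 27025 promoter windows of the same length. The 5 were Fancg, Bard1, Brca2, Chek2 and Mdc1. The pentamer CCAAT, either strand, stood in 15 of 27 (55.6%), against 34.5% of all windows. The windows of Brca2, Chek2 and Mdc1 are shown because these genes differed in their spread between wildtype mice, 5′ to 3′ on the strand of the gene, with the motif in capitals.
Brca2, chr5:150522371-150522620, plus strand: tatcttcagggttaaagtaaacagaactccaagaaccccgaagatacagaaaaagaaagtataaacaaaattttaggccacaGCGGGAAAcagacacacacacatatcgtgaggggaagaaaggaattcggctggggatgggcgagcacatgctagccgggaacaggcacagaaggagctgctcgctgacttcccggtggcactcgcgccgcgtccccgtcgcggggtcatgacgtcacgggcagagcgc
Chek2, chr5:110839733-110839982, plus strand: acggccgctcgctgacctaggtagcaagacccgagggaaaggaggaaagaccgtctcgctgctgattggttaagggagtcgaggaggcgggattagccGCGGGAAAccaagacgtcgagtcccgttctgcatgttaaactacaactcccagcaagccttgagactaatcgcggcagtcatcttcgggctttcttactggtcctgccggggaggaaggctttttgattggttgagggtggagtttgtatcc
Mdc1, chr17:35841248-35841497, plus strand: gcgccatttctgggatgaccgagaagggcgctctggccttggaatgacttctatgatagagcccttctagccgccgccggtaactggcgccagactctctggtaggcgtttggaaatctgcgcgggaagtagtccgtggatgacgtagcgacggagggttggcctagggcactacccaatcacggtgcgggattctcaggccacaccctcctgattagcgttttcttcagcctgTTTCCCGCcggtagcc
The motif lay 168 bases before the start in Brca2, 152 in Chek2 and 16 in Mdc1. Genes with the motif stood on both sides of the split. Bard1 and Brca2 were among the members that differed by over 1.5-fold between wildtype replicates 1 and 2, Chek2 and Fancg among those within 1.2-fold, and Mdc1 lay between at 1.25-fold. A match is a stretch of letters and not a measured binding site.

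Overlapping loci limit some counts. For 24 of the 35 members another locus lay over part of the span, and for 11 none did. Xrcc3, for one, lies within the span of Ppp1r13b and overlaps Klc1, and one end of Chek1 overlaps Stt3a on the same strand. Fanca, Fancc, Fancf and Fancm had further loci under the same symbol, which were not added to the member's count.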

How the data were processed

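Single-end reads of 50 bp from poly(A) libraries of sorted LSK cells were aligned to the mouse genome (mm9) by the authors and summarized per locus in Genomatix. CASAVA 1.8.2 is named in the submitters' processing notes, and the aligner, the counter and the annotation release are not given in the sources used here. The deposited table gives for each library a read count per locus, as made by the authors with no normalization, and an RPKM value, which the authors scaled by locus length and library size. Columns with the authors' own fold changes and p-values were not used.

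Counts were tested with edgeR 4.0.16 in R 4.3.3 (TMM scaling, filterByExpr by genotype, quasi-likelihood fit on all 6 libraries) over 22032 loci, with Benjamini-Hochberg adjustment over all of them. The study's methods name DESeq2's Wald test, which was run as an alternative (DESeq2 1.42.0), as was limma-voom (limma 3.58.1). The SE is the log2 fold change divided by the root of F, and 95% intervals use t with edgeR's degrees of freedom. CPM are counts per 1e+06 reads of the TMM-scaled library, and the SD of log2 levels is of log2(CPM + 0.25). A count of 3 reads, the level a count of 0 allows, was 0.109 to 0.155 CPM, for counting error only, and the fewest reads of a member in a library were 52. Scripts were tested on simulated data. The wildtype libraries held 19318056 to 21684561 reads, fewer than the OgaVav-Cre libraries.

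The members and lists were chosen with earlier results of these data known. Full statistics were given for the 10 members with the smallest unadjusted p, and up to 3 genes of smallest p were named from each list of pathway genes. Wildtype replicates 1 and 2 and the genes beyond these were singled out after their values were seen. Promoter sequences are from RefSeq on GRCm38.p6 and were matched by symbol.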

Additional observations from a re-analysis of the deposited data

How the results depend on the processing

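No member was called changed under any of 16 other settings, and none of the 10 members with full statistics changed sign in 160 refits. Those 10 were chosen by the smallest p in the main fit to the same libraries, which favours a stable sign. Over all 35 members, 18 were lower in the main fit, 13 without wildtype replicate 1 and 27 without wildtype replicate 2. The 2 members at an unadjusted p below 0.05 became 1 with DESeq2, 1 with RPKM at a pseudocount of 0.1, 1 with no filter on low counts and 0 with the immunoglobulin share as a covariate, and ranged from 0 to 9 when 1 library was left out (9 without wildtype replicate 1, 4 without wildtype replicate 2, 0 without OgaVav-Cre replicate 1 or 3 or wildtype replicate 3). The 8 members whose genotypes did not overlap were 7 with RLE size factors or no filter on low counts, and ranged from 8 to 23 when 1 library was left out. Without wildtype replicate 1, the highest library in most members, 8 were lower and 15 higher (17.9% and 17.4% of all loci). Without wildtype replicate 2, 12 were lower and 1 higher (13.9% and 12.5%). The median log2 fold change ranged from -0.16 without wildtype replicate 2 to 0.16 without wildtype replicate 1. For the settings that keep all libraries, the cause was not tested. The S phase covariate was chosen after seeing the data.

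The replicate numbers were also tried as a pairing. Same-numbered samples had deviations correlated at -0.08, 0.26 and 0.32, and 4 of 6 samples correlated best with their own number. With 3 mice a genotype these values cannot settle whether same-numbered mice shared a batch. The labels give a number and no pairing, so the main fit used none. With the replicate block, 0 members were called, 2 had an unadjusted p below 0.05 and the median was -0.0065. Over all loci the block gave 4 calls lower and 2 higher, against 6 and 1 without it. With 3 mice a genotype, an exact permutation test of a single gene cannot go below a two-sided p of 0.1.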
